A study of Macaca mulatta with 4 samples.

Results

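The inner bins of chromosome 13 are the 10-kb bins of this rhesus macaque chromosome that lie more than 5 Mb from either end of its span, from 5000001 to 103920000 of rheMac8. They number 9892 of 283406 bins in the genome. The chromosome was picked because strong coverage in the libraries labelled AG met little coverage in those labelled GG near 88 to 90 Mb and near 103.3 Mb. These places, called region 1 (88 to 90 Mb, 200 bins) and region 2 (103.3 to 103.4 Mb, 10 bins), are therefore only described. The other 9682 inner bins, called the rest of the inner part, are treated apart. They are what remained once these AG-rich regions were taken out, so they are not an unselected set. The mark measured was H3K27me3, histone H3 trimethylated at lysine 27, profiled by CUT&RUN in Macaca mulatta morulae with 2 AG and 2 GG libraries. The sample titles name the libraries ChIP-seq instead. According to the series, AG embryos are androgenetic, with a nuclear genome from the father alone, and GG embryos gynogenetic, with one from the mother alone. Both groups are uniparental, and all 4 libraries used an anti-H3K27me3 antibody. The labels give no animal, age or number of embryos per library, and nothing in them says that replicates came from separate pools, so the spread between replicates may be technical.

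H3K27me3 is written by PRC2, a Polycomb complex whose catalytic subunit EZH1 or EZH2 methylates the histone while EED binds the finished mark and helps it spread over neighbouring nucleosomes. It is known for silencing developmental genes. In mammalian oocytes and early embryos it can also lie in broad domains away from promoters, and in the mouse some genes are repressed on the maternal copy through such domains. In CUT&RUN an antibody directs a nuclease to the mark, and the released DNA is sequenced.

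Each library is a list of intervals, the stretches of bases under sequenced tags on islands that the submitters called enriched. Over the genome they numbered from 42512 to 44337 in AG and from 287230 to 362999 in GG. On inner chromosome 13 AG replicate 1 had 2055, AG replicate 2 1909, GG replicate 1 13561 and GG replicate 2 10537. No counts come with the intervals, so depth is unknown and no counting interval can be given. Islands were called with a window and gap of 200 and 200 bases in AG and of 300 and 1200 bases in GG. Group and calling settings therefore cannot be told apart. Less of the mark per nucleus and fewer nuclei carrying it cannot be told apart either.

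The small chosen regions held a large part of the AG coverage of inner chromosome 13, though the rest held more. In AG replicates 1 and 2 the rest held 56.8% and 57.8% of the inner covered bases. All inner bins together had a mean coverage of 0.757% ± 0.0394 in the AG libraries and of 7.68% ± 0.587 in the GG libraries (± SD, n = 2 each). Region 1, with 2.02% of the inner bins, held 35.0% and 35.9% of the inner covered bases in AG replicates 1 and 2. It held 3.85% and 2.34% of those in GG replicates 1 and 2. Region 2, with 0.101% of the bins, held 8.19% and 6.30% in AG and 0.325% and 0.636% in GG. Of the 9892 inner bins, 1682 had a covered base in any library, of which 1573 lay in the rest, 100 in region 1 and 9 in region 2.

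**Figure D1:**
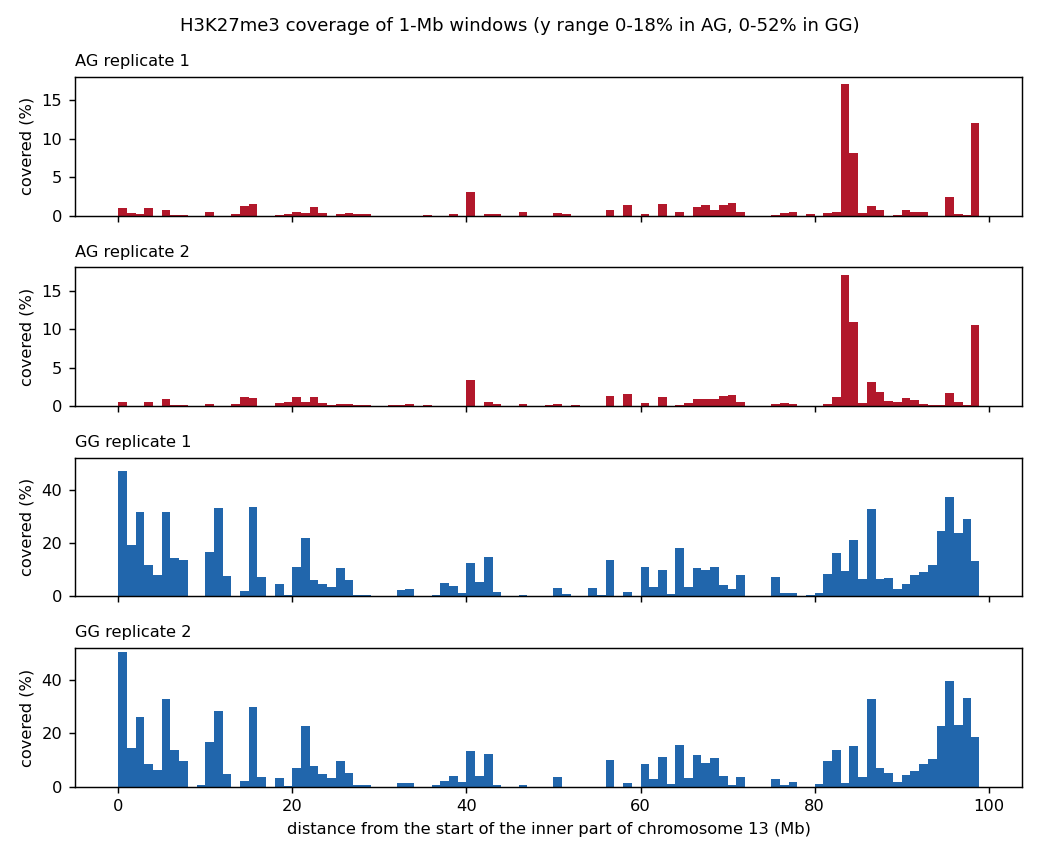
Percent of each 1-Mb window covered by H3K27me3 intervals (y axis) against the distance from the start of the inner part of chromosome 13 in Mb (x axis), with a panel per library; the last window holds 92 bins. The AG panels are dominated by the windows that hold regions 1 and 2, while the GG panels are highest toward both ends of the inner part.

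The AG coverage of region 1 formed a cluster of 740 kb from 88430001 to 89170000. A bin is called marked when at least 450 of its bases are covered. Bins marked in both AG libraries were joined into a cluster across at most 5 unmarked bins, a rule chosen after the data were seen. The cluster held 58 such bins among its 74. It was the largest of 2187 AG clusters in the genome by number of marked bins, followed by a cluster of 36 bins on chromosome 8 from 13200001 to 13660000 and another of 27 bins on chromosome 17 from 8940001 to 9270000. Of the 30 clusters with at least 10 marked bins, the cluster in region 1 was the only member from inner chromosome 13.

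Within the cluster the AG libraries were alike and the GG libraries were not. AG replicates 1 and 2 covered 33.4% and 36.5% of its bases, GG replicate 1 covered 22.6% and GG replicate 2 covered 5.05%. Marked bins numbered 60 and 66 in AG replicates 1 and 2, 32 in GG replicate 1 and 6 in GG replicate 2. Among the 58 shared AG bins, 28 were without a GG base and 6 were marked in both GG libraries. The covered bases per bin of AG replicates 1 and 2 had a Pearson r of 0.69 and a Spearman rho of 0.68 across these 74 neighbouring bins, which share a chromosome and a calling rule. At the level of bases, 56.7% of AG replicate 1 lay under intervals of AG replicate 2, which covered 36.5% of the cluster.

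GG replicate 1 entered the cluster mainly from its far side. The first 400 kb, from 88430001 to 88830000, were covered to 27.5% and 27.4% in AG replicates 1 and 2, to 3.58% in GG replicate 1 and to 0% in GG replicate 2. The following stretch, from 88830001 to 89170000, was covered to 40.4% and 47.3% in AG, to 45.0% in GG replicate 1 and to 11.0% in GG replicate 2. The boundary between these stretches is where the long GG replicate 1 coverage begins, so it was read from the data. In the far stretch GG replicate 1 reached the AG level and GG replicate 2 remained below it.

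Individual bins show 3 kinds of pattern. In the bin from 88450001 to 88460000, AG replicates 1 and 2 covered 7294 and 8632 bases and GG none. From 88550001 to 88560000 the AG libraries covered 9643 and 8444 bases, GG replicate 1 covered 6971 and GG replicate 2 none. The bin from 89020001 to 89030000 had 1409 and 8117 in AG against 9853 and 9416 in GG. AG is alone in the first of these, shares the second with a lone GG library and is below both GG libraries in the third. Marking in both GG libraries was limited to 3 bins from 88960001 to 88990000 and 3 bins from 89010001 to 89040000.

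The cluster ended sharply on the far side, at an AG-only bin. From 89160001 to 89170000 the AG libraries had 8182 and 8638 covered bases and the GG libraries none. The 500 kb beyond it were covered to 0.732% and 1.47% in AG replicates 1 and 2 and to 24.0% and 22.6% in GG replicates 1 and 2. The 500 kb before the cluster were nearly bare, at 0.346% and 0.172% in AG and 0.659% and 0% in GG. Region 1 therefore holds an AG-rich stretch and a GG-rich stretch side by side, and averaged over its 2 Mb the groups overlapped: 12.6% and 13.9% in AG replicates 1 and 2 against 15.4% and 8.39% in GG.

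**Figure D2:**
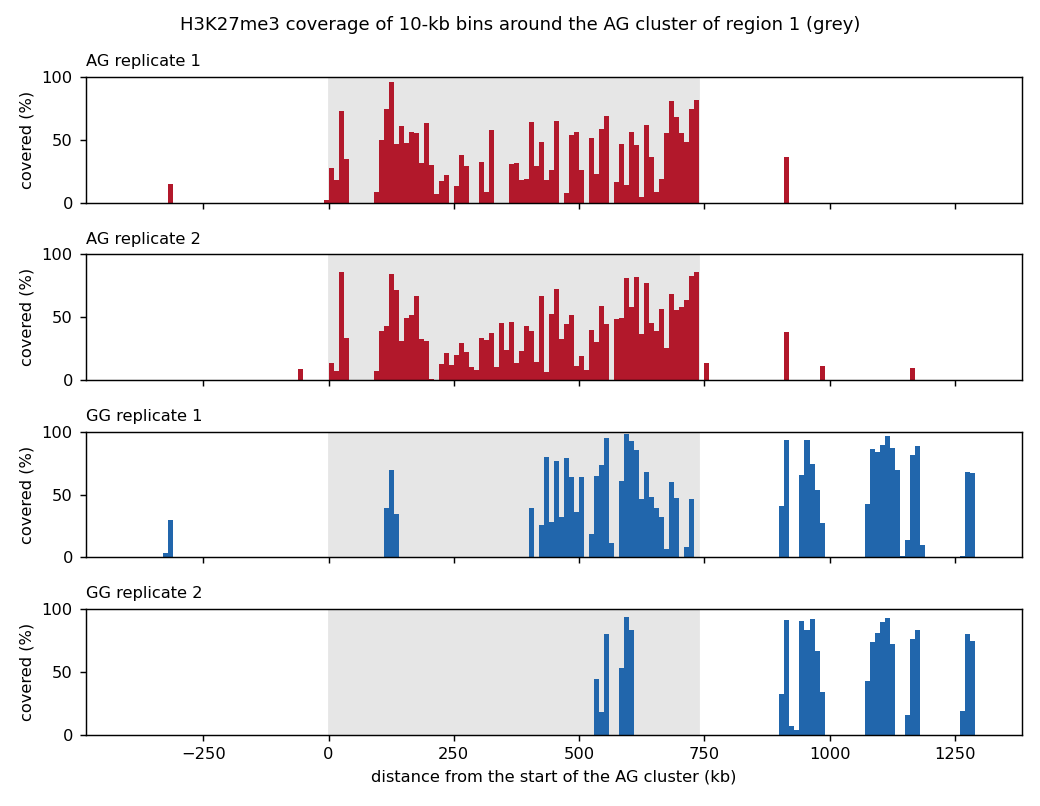
Percent of each 10-kb bin covered (y axis) against the distance in kb from the start of the AG cluster of region 1 (x axis), with a panel per library and the cluster in grey. AG coverage is spread over the cluster in both libraries, GG replicate 1 lies mainly on its far side, and GG replicate 2 has 6 marked bins in it. Both GG libraries are covered beyond the cluster, where AG is nearly empty.

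The GG replicates differed more often in region 1 than in the rest. Of the bins marked in GG replicate 1, 43.6% were also marked in replicate 2 in region 1 (24 of 55), against 76.3% in the rest and 72.7% in the inner parts of the other autosomes. Conversely, 92.3% of the 26 bins marked in GG replicate 2 were marked in replicate 1. In AG, 95.2% of the bins of replicate 1 were marked in replicate 2 in region 1, and 72% in the rest. These shares were not tested, because region 1 was chosen from this coverage.

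Region 2 held a cluster of 90 kb from 103300001 to 103390000, with all 9 bins marked in both AG libraries. AG replicates 1 and 2 covered 65.6% and 54.3% of it and GG replicates 1 and 2 covered 28.9% and 50.7%. Over the whole cluster the AG libraries lay above both GG libraries, by less than the distance between the GG libraries. It ranked as number 32 among the AG clusters of the genome.

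In the cluster of region 2 only 2 bins, near its start, were free of GG coverage. The bins from 103310001 to 103320000 and from 103320001 to 103330000 had 9137 and 8426 covered bases in AG replicate 1, 9566 and 8491 in AG replicate 2, and 0 in both GG libraries. From 103330001 to 103340000 the AG libraries covered 8933 and 8754 bases, GG replicate 1 none and GG replicate 2 2707. On the far side the order was mixed. The bin from 103370001 to 103380000 had 2336 and 3363 in AG against 7632 and 8349 in GG, and the last bin, from 103380001 to 103390000, had 7714 and 3315 in AG against 2104 and 7270 in GG. The mean AG coverage and that of GG replicate 1 ran opposite across the 9 bins, with a Pearson r of -0.92 and a Spearman rho of -0.93, given as a description of neighbouring bins. Before the cluster, 500 kb were covered to 22.8% and 24.4% in GG and to 0% in both AG libraries.

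**Figure D3:**
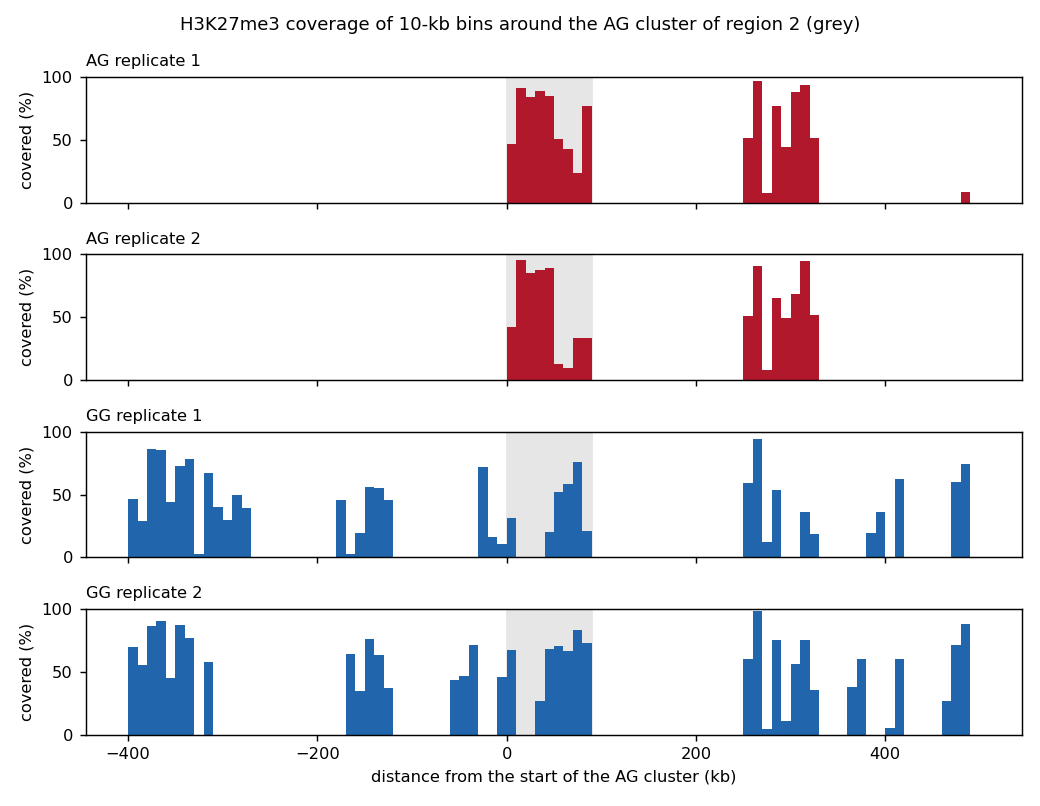
Percent of each 10-kb bin covered (y axis) against the distance in kb from the start of the AG cluster of region 2 (x axis), with a panel per library and the cluster in grey. Both AG libraries are high in the cluster, where GG is absent from 2 bins only, and again 250 kb further on, where all libraries are covered.

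Levels without these regions were set beside those of the other autosomes. The comparison is unequal, because AG-rich regions were removed from chromosome 13 only and the other autosomes keep their AG clusters. The rest was covered to 0.423% and 0.464% in AG replicates 1 and 2 and to 7.92% and 7.20% in GG replicates 1 and 2. These values ranked number 10 of 20 autosomes in both AG libraries and number 8 in both GG libraries. With the regions included, the inner part ranked number 1 in AG replicate 1 and number 3 in AG replicate 2, and stayed number 8 in GG. The GG level was 10.1 times the AG level over all inner bins and 17.1 times in the rest, against 5.09 to 22.9 times in the other 19 autosomes, with a median of 14.9. Among autosomes compared for their own patterns, the ratio was 22.9 on chromosome 10, 7.95 on chromosome 11 and 15.2 on chromosome 19. Both GG libraries exceeded both AG libraries in the rest. No p is given, since an exact two-sided permutation test of 2 against 2 libraries cannot go below 0.333.

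**Figure D4:**
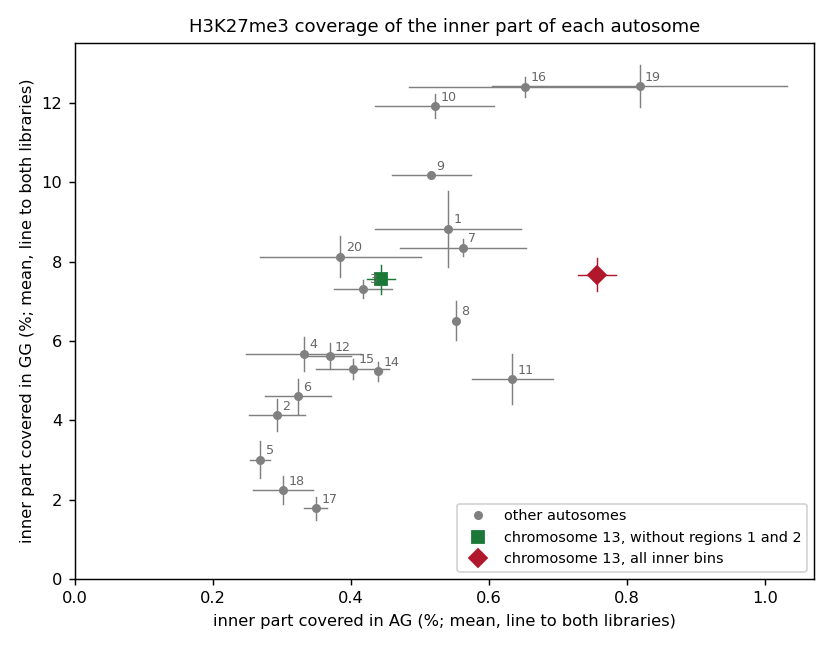
Percent of the inner part of each autosome covered in GG (y axis) against AG (x axis), as means of 2 libraries with lines reaching to both libraries. Chromosome 13 without regions 1 and 2 (0.443% in AG, 7.56% in GG) falls among the other autosomes, from which no region was removed, and with them (0.757% and 7.68%) it moves almost only along the AG axis.

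In the rest, bins marked in AG were few and mostly also marked in GG. AG replicate 1 marked 150 bins, AG replicate 2 206, GG replicate 1 1348 and GG replicate 2 1108. Both AG libraries marked 108 bins (1.12%) and both GG libraries 1029 (10.6%). The shared set held 80 bins, which is 74.1% of the AG bins and 7.77% of the GG bins. Another 22 AG bins (20.4%) were without a GG base. In the inner parts of the other autosomes these shares of the AG bins were 64.1% and 25.8%, and this difference was not tested. The share without a GG base was 34.0% when AG replicate 2 was used alone.

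In unscaled bases the shared bins were covered less in AG than in GG, a direction that depends on the scaling as given below. Over these 80 bins the median coverage was 2480 bases in AG replicate 1, 2188 in AG replicate 2, 7594 in GG replicate 1 and 7622 in GG replicate 2. Both GG libraries lay above both AG libraries in 68 of them (85%), against 88.5% of such bins in the genome. Both AG libraries lay above both GG libraries in 5 (6.25%), against 3.61% in the genome. Of the bases covered in AG replicates 1 and 2, 68.3% and 61.9% lay under intervals of GG replicate 1, which covered 7.92% of the rest. The AG bases thus fell mostly inside GG intervals in the rest. In the cluster of region 1, where GG replicate 1 covered 22.6%, the same shares were 34.1% and 35.5%. Region 1 was chosen for little GG coverage and then taken out of the rest. A lower share there is built into that choice and is only described.

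Tested bin by bin, most tested bins of the rest were higher in GG, at a share near that of the whole genome. Of its 9682 bins, 1573 had a covered base, and 1039 reached 750 covered bases in at least 2 libraries and entered a limma fit over 30536 bins of the genome on log2(covered bases + 300). At a Benjamini-Hochberg adjusted p under 0.05, GG was higher in 925 bins of the rest (89%) and AG in 23 (2.21%). The genome-wide shares were 85.1% and 3.85%. With nearly no filter (150 covered bases reached in any library), 57.9% of 1567 tested bins of the rest were higher in GG, against 54.9% in the genome. Scaled to library totals these counts were 823 and 92 (genome 74.8% and 10.8%), and with median-of-ratios factors 850 and 44 (genome 77.3% and 5.59%). Of the GG calls 844 had no AG base, and of the AG calls 21 had no GG base. A bin bare in a whole group can enter the fit only where the other group is high and so had to differ; these counts come close to restating which group covered a bin.

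Most AG calls of the rest were in bins bare in GG. In the bin with the largest difference, 61330001 to 61340000, the AG libraries covered 5423 and 6461 bases and GG none (limma log2 difference 4.37, SE 0.106, adjusted p = 0.000172). The next bins by size began at 27550001, 51230001, 74380001 and 75430001, with limma log2 differences of 3.97, 3.78, 3.72 and 3.55. Their AG coverage lay between 3130 and 4443 bases per library. Where GG is at 0 the log2 difference is set in part by the 300 added bases and is no measured fold.

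A lone AG call of the rest fell in a bin marked in all 4 libraries, 45750001 to 45760000. AG covered 7943 and 7572 of its bases and GG 5666 and 5623 (limma log2 difference 0.44, adjusted p = 0.0311). With replicate number as a block this bin was not called. Its neighbour from 45740001 to 45750000 had 2790 and 2359 in AG against 1350 and 1942 in GG (limma adjusted p = 0.0897). The remaining AG call with any GG base, from 63890001 to 63900000, had 1251 and 1221 covered bases in AG against 56 and 0 in GG. The extreme GG bins were nearly full in GG and empty in AG, such as 20710001 to 20720000 with 10000 and 9995 covered bases and 20740001 to 20750000 with 9986 and 10000 (both limma log2 difference -5.10, adjusted p = 1.003e-05).

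In bins marked in all 4 libraries the direction followed the scaling. Of 79 such bins tested in the rest, 47 were higher in GG and 1 in AG without scaling, against 67.3% and 1.26% of these bins genome-wide. Under scaling to library totals GG was higher in 0 and AG in 64 (genome 0% and 79.8%). With median-of-ratios factors 10 were higher in GG and 21 in AG (genome 15.5% and 22.2%). Their median log2 difference in these fits was -1.369, 2.167 and 0.043 in the rest and -1.405, 2.132 and -0.015 genome-wide. Over all tested bins of the genome, most of them bare in AG, it was -4.32, -2.59 and -3.62. No direction is given for the shared bins.

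AG marking in the rest was split evenly between lone bins and runs. The 108 AG bins formed 54 runs of 1 bin, 15 of 2 bins, 4 of 3 bins, 1 of 4 bins and 1 of 8 bins. The run of 8 bins, from 103550001 to 103630000, lies 160 kb beyond the cluster of region 2. It was covered to 63.8% and 60.0% in AG replicates 1 and 2 and to 34.3% and 52.1% in GG replicates 1 and 2, and held 12.5% and 10.7% of the AG bases of the rest. In the run of 4 bins, from 45670001 to 45710000, AG covered 47.6% and 49.2% and GG 96.8% and 97.7%. From 63890001 to 63920000 all 4 libraries were close, at 48.0% and 47.1% in AG and 49.6% and 51.6% in GG. In unscaled coverage these runs thus span AG above GG over the run as a whole, AG inside a full GG stretch, and close coverage. The run of 8 bins is itself mixed. From 103554474 to 103569293 GG replicates 1 and 2 reached 99.2% and 99.9%, against 96.6% and 95.4% for AG replicates 1 and 2. No bin of this run was called higher in AG in the unscaled fit.

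Domains, made by joining intervals at most 1500 bases apart, were wider in GG. Their N50 in the rest was 4505 ± 936 bp for AG and 21907 ± 2456 bp for GG (± SD, n = 2 each); domains of this width or more make up 50% of the total width. The wider calling gap of GG moves with this difference, and its part was not tested. The widest AG domain common to both libraries spanned 24.6 kb from 103599385 to 103624010. AG covered 92.6% and 83.8% of it and GG 21.8% and 66.2%. Single GG libraries had domains of up to 140.7 and 169.6 kb. The widest GG domain common to both libraries spanned 129.8 kb from 87444217 to 87574001, before region 1, and was covered to 95.1% and 95.5% in GG and to 3.80% and 7.14% in AG. The next GG domain, 115.6 kb from 5626771 to 5742399, was covered to 3.76% and 1.09% in AG. The fourth, 76.4 kb from 101644724 to 101721089, had no AG base. The fifth, 72.8 kb from 45641320 to 45714104, held the run of 4 AG bins and was covered to at least 26.1% in both AG libraries.

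The share of GG domains holding AG bases was counted by width. Of 465 GG domains common to both libraries in the rest, 57 (12.3%) held bases of both AG libraries and 373 held none. Among domains of 50 kb and over 7 of 15 (46.7%) held bases of both AG libraries, against 13.6% of 214 domains of 10 to 50 kb and 8.77% of 228 domains of 2 to 10 kb. Under 2 kb it was 1 of 8 (12.5%). The summed width under AG replicate 1 was 4.48%, 3.88%, 4.35% and 6.86% in these classes, from widest to narrowest, and under AG replicate 2 4.66%, 3.71%, 4.45% and 7.77%. These differences were not tested, and the narrowest class holds few domains. A wider domain offers more bases in which an AG interval can lie. Of 91 AG domains common to both libraries, both GG libraries covered at least 90% of 54 (59.3%) and no base of 22 (24.2%). Their median widths were 2031 and 2040 bp, so AG domains inside and outside GG coverage had close median widths.

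**Figure D5:**
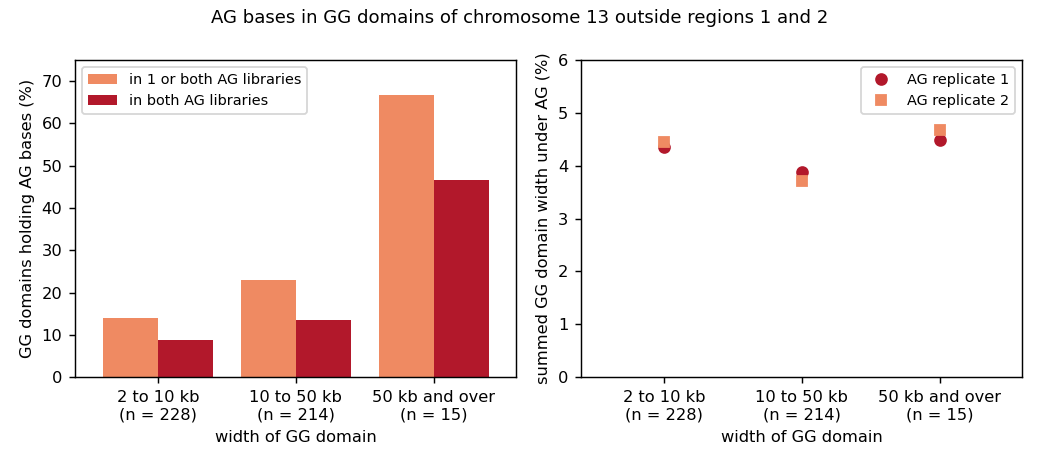
Left, percent of GG domains holding AG bases (y axis) by width class (x axis), in 1 or both AG libraries and in both; right, percent of the summed GG domain width under each AG library. The 8 domains under 2 kb are not drawn; over the classes drawn, the left bars reach 46.7% in both AG libraries at 50 kb and over, while the right points lie between 3.71% and 4.66%.

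Along the chromosome the windows with most GG coverage lay mainly toward both ends of the inner part, and long stretches of its middle had no coverage. Of 96 windows of 1 Mb wholly in the rest, 11 were covered above 20% in both GG libraries. The highest, from 5000001 to 6000000, was covered to 47.2% and 50.4% in GG and to 0.958% and 0.527% in AG. Among these windows AG was highest from 45000001 to 46000000, where AG covered 3.14% and 3.36% and GG 12.7% and 13.5%. The window shared with region 2, from 103000001 to 103920000, had 82 bins in the rest, covered to 6.33% and 5.85% in AG. No base was covered in any library in 15 windows, and the longest such stretch ran for 3.62 Mb from 76635022 to 80252058. Whether assembly gaps or poor mapping lie there was not tested. Across the 96 windows the AG libraries had a Pearson r of 0.86, the GG libraries one of 0.99, and pairs across the groups 0.36 to 0.42 (Spearman rho 0.84, 0.97 and 0.54 to 0.58). Neighbouring windows and a common genome tie these points together.

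GG coverage changed abruptly at the start of the inner part and less so at its end, where AG coverage dropped. The last 1 Mb left out at the start was covered to 0% in both AG libraries and to 0.290% and 0% in GG, just before the GG maximum described above. The last 1 Mb inside was covered to 11.1% and 9.69% in AG, most of it from region 2 and the run of 8 bins beyond, and to 17.1% and 21.6% in GG. In the first 1 Mb left out at the end AG covered 0.221% and 0.755% and GG 18.4% and 15.4%.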

How the data were processed

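Per the submitters' processing notes, the authors worked on rheMac8 with SICER 1.1, deepTools 3.3.1, Bowtie2, Trim Galore and SAMtools. The deposited intervals give positions only, with tags filtered to islands called per library at an E value of 0.001; how tags were joined is not stated. No control library, gene annotation or genome sequence of rheMac8 was used here.

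Covered bases were summed in bins of 10 kb, and a bin of at least 450 was marked. All members and lists were chosen with earlier results of these data known. Bins that reached 750 covered bases in at least 2 libraries were fitted with limma 3.58.1 (eBayes with trend, AG minus GG, Benjamini-Hochberg over the genome), unscaled because a bin's coverage stops at 10000. Named were marked bins of regions 1 and 2 and, in the rest, the 5 widest domains per group, the 5 highest and 5 lowest called differences, the 5 longest AG runs and the highest windows. Bins marked in all 4 libraries with AG above GG, the clusters and the stretches within them were chosen after their values were seen. On simulated data for AG against GG (30536 bins, noise SD 0.248 on the log2 scale), all planted differences of 2 and 4 were called (100%), as were 0.00659% of unchanged bins. These rates hold for that single noise level only. In the rest, differences larger than 2 in size went uncalled in some bins covered in a lone AG library. The simulation therefore cannot give the power or the false rate for bins whose replicates disagree. At most 1 interval on chromosome 13 was identical between any 2 libraries. Python 3.11.15, numpy 2.4.6 and R 4.3.3 were used.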

Additional observations from a re-analysis of the deposited data

How the results depend on the processing

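Of 110 recomputed values for 14 results, 89 lay within 1 SD of the replicates or 1.5 times a count. Changes of direction were not checked in this count, and in bins marked in all 4 libraries the direction followed the scaling. For coverage levels and N50, leaving out 1 of 2 replicates always moves the mean by less than 1 SD. Those values were therefore bound to lie within the margin. AG coverage of the rest (0.443%) was 0.385% with 10 Mb left out at each end, 0.394% with 1 Mb added around both regions, 0.757% with no region set apart and 0.379% under a common clustering rule, which gave 11.6% for AG in region 1 and an N50 of 18062 bp in GG. GG coverage of the rest (7.56%) was 8.11% and 5.66% with 2 and 10 Mb left out, and 10 Mb left 609 GG calls. Bins marked in both AG libraries (1.12%) were 0.640% at 1500 bases, 0.677% in 5-kb bins, 1.92% in 20-kb bins and 1.78% with no region set apart. With a single AG library they ranged from 1.55% to 2.13%, the highest without AG replicate 1. The AG bins without a GG base (20.4%) ranged from 22.2% to 34.0% when a library was left out, the highest without AG replicate 1. Leaving out a GG library can only keep or raise this share, since fewer libraries must be bare. Leaving out AG replicate 1 lets in 98 bins marked in AG replicate 2 but not in AG replicate 1. Of these, 49 were marked in no GG library. What else lies behind the rise was not tested. The GG N50 was 15723 and 31057 bp when joining over 500 and 3000 bases. AG calls in the rest (23) were 92 when scaled to totals, 44 with median-of-ratios factors and 1 among bins covered in all 4 libraries, where GG calls (925) were 52; this filter drops bins covered in 1 group. With the replicate block the calls were 22 and 887. Replicate numbers are not tied to a shared batch by the labels, and deviations of same-numbered libraries had a correlation of -0.08 across 30536 bins. Leaving out a library, with a lone library assumed to vary like the other group, kept the median log2 difference of the rest between -4.42 and -4.35. With all libraries it was -4.37. In bins of the rest marked in all 4 libraries the median ran from -1.39 to -1.25, against -1.37 with all libraries. Calls from these fits are not given, because a lone library has no spread of its own. Without counts, depth cannot be separated from coverage.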
